A study of Mus musculus with 20 samples.

Results

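Effector CD8+ T cells of the graft that had reached the liver were compared with those circulating in peripheral blood of transplant recipients. The comparison used 9 of the series' 20 arrays, namely liver replicates 1 to 4 and blood replicates 1 to 5. These arrays were selected by their titles and by a measured property, since liver replicate 5 was left out of the fit for its intestinal transcripts and is given only as a side value. The series profiled such cells from 4 sites (liver, lung, small intestine and blood), with 5 arrays a site, in a mouse model of lethal acute graft-versus-host disease.

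All groups shared one transplant design and differed by the labelled site. Anything else that differed along with the site cannot be told apart from it. Recipients were female C57Bl/6 m-act OVA mice, 8 to 16 weeks of age, whose CAG-OVA transgene drives ovalbumin from a ubiquitously active promoter. They received 11 Gy of total body irradiation as 2 doses of 5.5 Gy, 3 hours apart. The graft held 3000000 bone marrow cells and 15000000 splenocytes of C57Bl/6 OT-I donors, whose CD8+ T cells carry a receptor for an ovalbumin peptide. The OT-I cells carried CD45.1, and the other graft cells and the recipients carried CD45.2. The labels call the transplant allogeneic, although both strains named are C57Bl/6. Cells were recovered on day 4 by magnetic selection for CD45.1, a bead-based enrichment whose purity the labels do not give. Which animal an array came from is not in the labels, so the spread behind each p-value is that between arrays and may be technical.

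Naive CD8+ T cells that meet their antigen divide and become effector cells, which kill through perforin and granzymes and secrete cytokines such as interferon gamma. Each new contact through the T cell receptor sets off an immediate early response, in which MAP kinase, calcium and NF-kB signals switch on genes for AP-1, Nr4a and Egr factors together with their feedback inhibitors. Entry into and exit from tissues is steered by chemokine receptors, integrins and the sphingosine phosphate receptor, and CD69 holds cells in tissue by opposing that receptor.

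Values are log2 intensities relative to the 75th percentile of each array, so that 0 is a signal at that percentile, and levels of different genes are not set against each other. The 75th percentile lay at a signal of 1285 to 2603 on liver replicates 1 to 4 and of 1473 to 2218 on the blood arrays. The share of probes well above background was 28.5% to 34.1% on these liver arrays and 22.6% to 35.5% on the blood arrays. The T cell label held on every array: 17 of 20 genes of the T cell receptor complex and CD8 were tested, and their mean level was 4.70 to 4.89 in liver and 4.39 to 4.90 in blood. Cd3e, a signalling chain of the receptor, averaged 6.23 in liver and 6.18 in blood. On liver replicate 5, the Paneth cell defensin Defa23 was at 6.93, against -0.31 to -0.06 on liver replicates 1 to 4 and -0.75 to 1.84 on the blood arrays.

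Testing a gene required a probe bright over background on 3 or more liver arrays or on 4 or more blood arrays. Of 7879 genes tested, 730 met this only through liver, 124 only through blood and 7025 through both, so the choice of genes itself favours higher values in liver. For several lists, values over the members that passed at both sites are given too, a setting added once the values were known.

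No gene passed an adjusted p of 0.05 with limma, which is 0% of the genes. At an unadjusted p under 0.05 there were 327 genes, 125 of them higher and 202 lower in liver, and the smallest adjusted p by limma was 0.309. The median difference, liver minus blood, over all genes tested was 0.04, and 4491 genes had a difference above 0. The 4 liver values all lay above the 5 blood values for 44 genes, or 0.558% of those tested, and all below them for 81 genes, or 1.03%. With median scaling of the arrays these counts were 13 and 6. The median standard error of a difference was 0.26. The differences below are therefore given as measured values with their errors, and no single gene is called changed.

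Dusp1, a phosphatase that switches off MAP kinases and is itself an early response gene, had values of 2.49, 2.57, 1.69 and 2.47 in liver replicates 1 to 4, against 0.81, 1.44, -0.21, -0.74 and 0.05 in blood replicates 1 to 5. All liver values were above all blood values, and liver replicate 3 was the lowest of the liver arrays. The difference was 2.04 ± 0.41 (SE, n = 4 and 5), or 4.11-fold, with a limma adjusted p of 0.775.

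Cd83, a surface molecule of activated lymphocytes and dendritic cells, had values of 4.69, 5.53, 1.71 and 4.81 in liver, against 0.57, 1.96, 0.05, 0.23 and 1.65 in blood. The groups overlapped only through liver replicate 3, which lay below blood replicate 2. The difference was 3.29 ± 0.71, or 9.80-fold, with a limma adjusted p of 0.775, and the side value of liver replicate 5 was 6.21. Without liver replicate 3 it was 4.12 ± 0.46, and limma's adjusted p was 0.0205, the lowest of the 23 alternative settings, of which the highest was 1.000.

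Cxcr4, the receptor for the chemokine CXCL12, had values of 2.25, 2.58, 0.40 and 2.12 in liver, against -0.41, 0.22, 0.52, 0.10 and 0.15 in blood. Liver replicate 3 again lay among the blood values and the other liver arrays above all of them. The difference was 1.73 ± 0.40, or 3.31-fold, with a limma adjusted p of 0.788. Without liver replicate 3 it was 2.20 ± 0.25 with a limma adjusted p of 0.0205 (up to 1.000 in the other settings), and Cd83 and Cxcr4 were the only genes past the threshold in that setting.

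Cxcl10, an interferon-induced chemokine that attracts cells bearing CXCR3, had values of 2.15, 2.71, -0.06 and 0.76 in liver, against -1.33, 0.17, -1.78, -3.26 and -1.60 in blood. Liver replicate 3 overlapped blood replicate 2. It was well above background on 4 liver arrays but on 1 blood array only. The measured difference was 2.95 ± 0.69 with a limma adjusted p of 0.788, and its size rests on blood signals that were mostly not well above background.

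The 250 bases before the RefSeq start of Dusp1, Cxcl10, Nfkbie and Fos (GRCm38.p6) are shown because these genes carry the early response values, and because they hold different motif letters. Capitals mark matches, on either strand, to TGACGTCA (the cyclic AMP response element), TGANTCA (AP-1), GGGNNNNTCC (kB) or GAAANNGAAA (an interferon response element). The windows lie at chr17:26508473-26508722 on the minus strand for Dusp1, chr5:92348890-92349139 on the minus strand for Cxcl10, chr17:45555450-45555699 on the plus strand for Nfkbie and chr12:85473640-85473889 on the plus strand for Fos.
Dusp1: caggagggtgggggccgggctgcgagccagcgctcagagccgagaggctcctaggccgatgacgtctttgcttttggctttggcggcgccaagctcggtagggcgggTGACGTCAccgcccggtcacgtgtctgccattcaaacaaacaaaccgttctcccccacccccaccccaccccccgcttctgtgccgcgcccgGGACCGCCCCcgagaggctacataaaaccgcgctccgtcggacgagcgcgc
Cxcl10: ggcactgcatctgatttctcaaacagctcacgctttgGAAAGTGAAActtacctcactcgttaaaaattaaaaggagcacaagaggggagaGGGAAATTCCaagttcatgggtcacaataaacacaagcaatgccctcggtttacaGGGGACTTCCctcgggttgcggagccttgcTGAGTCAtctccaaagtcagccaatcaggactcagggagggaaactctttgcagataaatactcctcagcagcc
Nfkbie: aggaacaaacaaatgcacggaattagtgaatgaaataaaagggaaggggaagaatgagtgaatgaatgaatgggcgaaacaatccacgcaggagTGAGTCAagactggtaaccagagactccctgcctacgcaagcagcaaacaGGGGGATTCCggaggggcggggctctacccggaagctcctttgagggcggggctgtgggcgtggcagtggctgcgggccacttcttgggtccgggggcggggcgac
Fos: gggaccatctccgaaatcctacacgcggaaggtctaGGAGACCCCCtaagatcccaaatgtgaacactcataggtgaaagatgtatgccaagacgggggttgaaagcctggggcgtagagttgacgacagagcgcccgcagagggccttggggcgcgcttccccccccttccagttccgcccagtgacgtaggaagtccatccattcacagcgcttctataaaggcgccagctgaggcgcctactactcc

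In the Dusp1 window the cyclic AMP element began 143 bases before the start, and a loose kB match lay 51 bases before it. The Cxcl10 window held the interferon element 213 bases, kB letters 159 and 104 bases and AP-1 letters 74 bases before the start. Nfkbie had AP-1 letters at 156 and kB letters at 106 bases, and Fos a kB match at 214 bases. Over 32851 RefSeq promoters of this length, 1.55% held the cyclic AMP element, 6.75% the AP-1 letters, 16.5% the kB letters and 2.98% the interferon element. Among 46 genes with a promoter entry (the tested early response genes with Cxcl10 and Cxcr4), 7, 6, 20 and 3 held these motifs in that order. A gene counted here if any of its promoter entries matched, while the shares above count each entry. Genes with several entries had more chances to match, so the counts and shares are unlike measures. The serum response element, searched as the strict CArG letters CCWWWWWWGG (W is A or T), was in 1.47% of all promoters and in 0 of the 46. Looser forms and bases further from the start were not searched. A match describes the letters only. The windows of Cxcr4, Nr4a1 and Maff held none of these letters, and that of Nfkbia held a kB match 29 bases before the start.

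**Figure D1:**
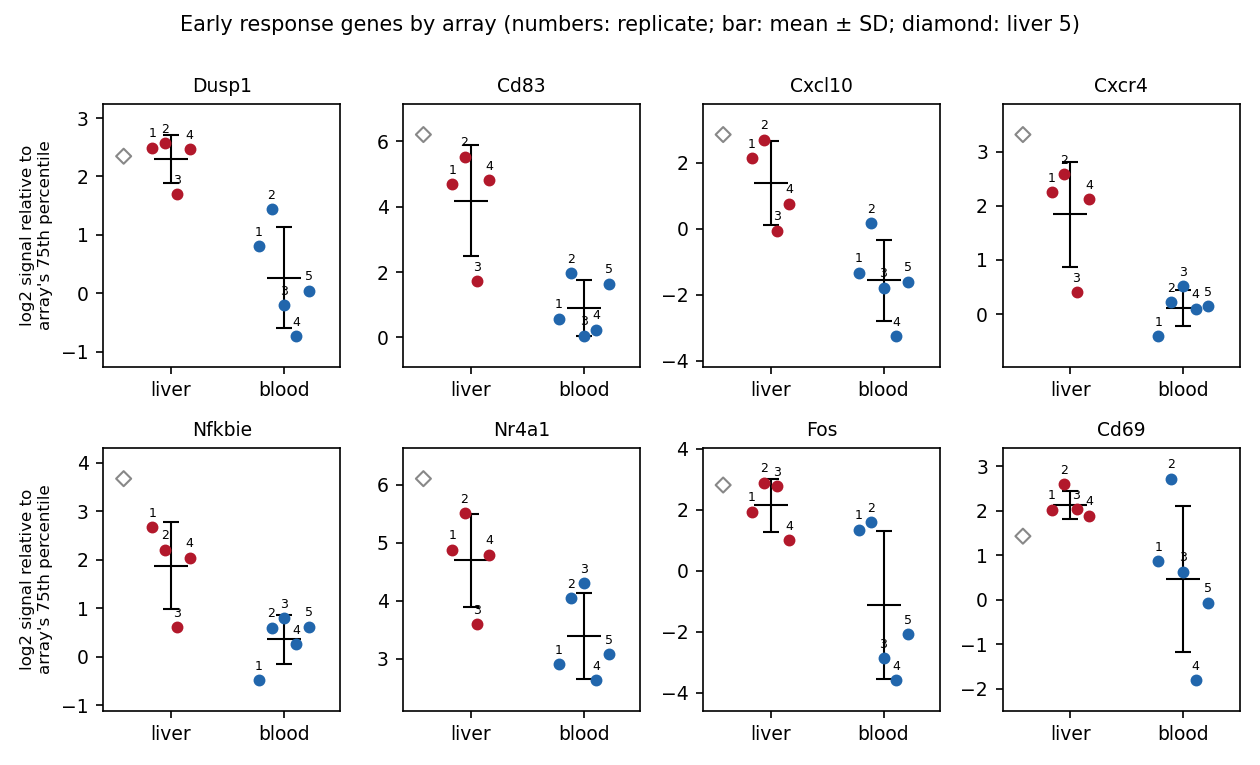
Log2 signal relative to the 75th percentile of each array (vertical axis) for 8 early response genes in liver (red, left) and blood (blue, right). Points are arrays with their replicate number, bars are the mean ± SD, and the grey diamond is liver replicate 5, which is not in the mean. Liver replicate 3 is the lowest liver array for Dusp1, Cd83, Cxcl10, Cxcr4, Nfkbie and Nr4a1, but not for Fos or Cd69.

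Among the AP-1 factors, 7 of 12 were tested, 5 differences were above 0 and their median was 0.82. Of these, 3 passed only through liver, and over the other 4 the median was 0.25 with 2 above 0. Fos, one of the AP-1 subunits, was at 1.94, 2.88, 2.77 and 1.01 in liver, against 1.35, 1.60, -2.86, -3.59 and -2.07 in blood. Blood replicates 1 and 2 overlapped the liver arrays while the other three blood arrays lay far below them, and the difference was 3.27 ± 1.05. It was well above background on 4 liver arrays and on 2 blood arrays, so its size rests on blood signals that were not. Maff, a small Maf factor, differed by 2.60 ± 0.77 and was well above background on 3 liver arrays and 1 blood array. Jun differed by 0.82 ± 0.40. Batf, an AP-1 factor of effector differentiation, differed by -0.16 ± 0.18, with a 95% interval of -0.55 to 0.23.

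For the Nr4a and Egr factors, 4 of 8 were tested, all 4 differences were above 0 and the median was 0.40. Nr4a1, a nuclear receptor that follows T cell receptor signal strength, was at 4.88, 5.51, 3.59 and 4.80 in liver, against 2.91, 4.05, 4.30, 2.63 and 3.07 in blood. Liver replicate 3 lay below blood replicates 2 and 3, and the difference was 1.30 ± 0.44. Nr4a2 differed by 0.11 ± 0.30 and Egr1 by 0.70 ± 0.53, both with overlapping groups.

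NF-kB members and their feedback inhibitors had 14 of 16 tested, of which 12 differences were above 0, and a median of 0.37, or 0.45 over the 13 that passed at both sites. Nfkbie, which encodes the inhibitor IkB epsilon, was at 2.67, 2.20, 0.61 and 2.05 in liver, against -0.48, 0.60, 0.80, 0.26 and 0.62 in blood. Liver replicate 3 lay within the blood values, and the difference was 1.52 ± 0.41. Nfkbia, which encodes IkB alpha, differed by 0.99 ± 0.40. Tnfaip3, the ubiquitin-editing enzyme A20, differed by 0.23 ± 0.51.

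The phosphatase list around Dusp1 had 7 of 9 tested, 6 differences above 0 and a median of 0.28. Dusp10 differed by 0.84 ± 0.39, Dusp2 by 0.02 ± 0.18 and Dusp7 by -0.91 ± 0.39. Of 32 other early response genes 25 were tested, 23 differences were above 0 and the median was 0.64. Over the 22 that passed at both sites 20 were above 0 and the median was 0.59. The mean level of these 22 was 3.09, 3.23, 2.46 and 2.76 on liver replicates 1 to 4, against 2.07, 2.73, 2.54, 1.68 and 1.82 on blood replicates 1 to 5. Blood replicates 2 and 3 lay above liver replicate 3, so the array means overlapped. No member of these 5 lists passed the threshold with limma, against 0% of all genes, and 1 phosphatase (Dusp1) and 1 NF-kB subunit (Relb, chosen here after its values were seen, with a difference of 0.61) had liver values that were all above blood, a pattern that 0.558% of all genes showed. The lists were chosen with earlier results of these data known, so their medians are descriptions beside the 0.04 of all genes.

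Markers of other cells varied between arrays. The mean of the 6 tested neutrophil markers was 2.58, 2.73, -0.14 and 4.89 in liver, against 0.63, 0.48, -0.94, 1.64 and 0.68 in blood, so liver replicate 3 was again the lowest liver array. Of these 6 markers 4 (Camp, S100a8, S100a9 and Lcn2) passed the filter only through liver, so the higher liver mean is no support for a difference. The other two, Cxcr2 and Csf3r, differed by 0.12 and 0.25. Of the 19 neutrophil genes with a probe, 2 to 9 were well above background on a liver array and 2 to 5 on a blood array, and the granule genes Mpo and Ngp passed background on none of these 9 arrays. Of the 7 tested dendritic cell markers, which T cells also express in part, Cd83 and Ccr7 had the highest differences, 3.29 and 1.18. The other five, Itgax, Irf8, Xcr1, Siglech and Bst2, ran from -0.35 to 0.21 and were well above background on all 4 liver and all 5 blood arrays. Of the 20 dendritic genes with a probe, 7 to 10 were well above background on a liver array and 7 to 11 on a blood array. Among the untested ones Clec9a, Cd209a and Ccl22 passed background on none of the 9 arrays, and Flt3 only on 1 blood array. The part of these cells in the early response values was not tested. In bulk RNA, fewer cells of a type and less RNA per cell cannot be told apart.

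**Figure D2:**
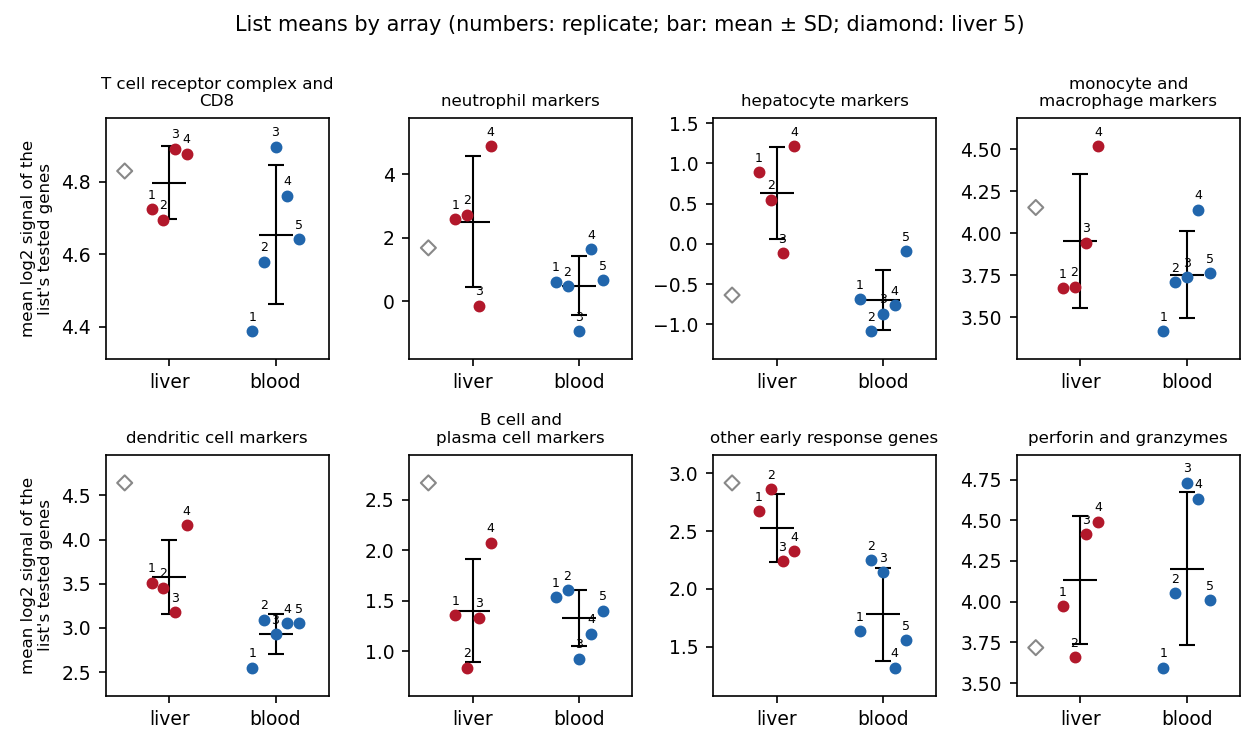
Mean log2 signal of the tested genes of 8 lists (vertical axis) on each array of liver (red, left) and blood (blue, right), with replicate numbers, mean ± SD and liver replicate 5 as a grey diamond. Neutrophil markers range from -0.14 to 4.89 in liver and from -0.94 to 1.64 in blood, but 4 of the 6 passed the filter only through liver. Over the 2 that passed at both sites the array means overlap, at 4.83 to 5.52 in liver and 4.52 to 5.11 in blood. Of the 6 hepatocyte markers 5 passed only through liver, as did 3 of the 25 other early response genes. The T cell receptor list stays between 4.39 and 4.90 on all 9 arrays.

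Camp, the neutrophil granule peptide cathelicidin, was at 1.08, 1.43, -2.85 and 4.57 in liver, against -2.09, -2.92, -3.62, -3.72 and -3.25 in blood. It was well above background on 3 liver arrays and on no blood array. With each blood signal raised to the lowest signal well above background of any probe on its array, liver was 4.00-fold higher. That floor is not the detection level of this probe, so the fold is not a strict lower bound. The liver mean includes replicate 3 at -2.85. S100a9 differed by 2.93 ± 1.56 and S100a8 by 2.25 ± 1.15, both neutrophil and monocyte calcium-binding proteins, and S100a8 was well above background on 3 liver arrays and 1 blood array.

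Of 34 hepatocyte markers with a probe, 2 to 10 were well above background on a liver array and 1 to 6 on a blood array, and 6 were tested. Of these, 5 passed only through liver, which favours a higher value there, and Ass1, a urea cycle enzyme that passed at both sites, differed by 0.18. Alb was well above background on 0 of the 9 arrays and Apoa1 on 1 blood array only. Saa2, an acute phase protein of hepatocytes, was at 1.1, -0.38, -0.52 and 0.94 in liver, against -1.87, -2.52, -2.23, -1.42 and -2.52 in blood, with no overlap. No blood array had Saa2 well above background. With blood signals raised to the floor described for Camp where lower, liver was 2.32-fold higher. The limma adjusted p, for the difference as measured, was 0.309. Hp, the haemoglobin-binding protein haptoglobin, which neutrophils also make, differed by 3.32 ± 1.04 with 3 liver arrays and 1 blood array well above background, and liver replicate 3 at -1.91 overlapped blood.

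Genes of tissue residency and recirculation overlapped between the sites in the members named here. In the residency list 17 of 23 genes with a probe were tested, 14 differences were above 0 and the median was 0.21. Cd69 was at 2.03, 2.59, 2.03 and 1.89 in liver, against 0.86, 2.72, 0.63, -1.81 and -0.07 in blood. Blood replicate 2 lay above all liver arrays and the other blood arrays below them, and the difference was 1.67 ± 0.69. Hilpda, a lipid droplet protein induced by low oxygen, differed by 1.34 ± 0.50, and Prdm1, which encodes the effector factor Blimp-1, by -1.15 ± 0.54. Without liver replicate 2 the Prdm1 difference was -0.47.

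The egress and recirculation list had 14 of 20 tested, 9 differences above 0 and a median of 0.11. Ccr7, the lymph node homing receptor, was at 5.46, 5.90, 4.10 and 6.54 in liver, against 3.09, 4.17, 4.74, 5.10 and 4.48 in blood. Liver replicate 3 lay within the blood values and the difference was 1.18 ± 0.50. Klf2, a factor that drives egress genes, differed by 0.65 ± 0.24. S1pr1, the egress receptor itself, differed by -0.69 ± 0.34.

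Of the chemokine receptors 11 of 20 were tested, 9 differences were above 0 and the median was 0.25. Over the 8 that passed at both sites 6 were above 0 and the median was 0.13. Ccrl2, an atypical chemerin receptor, differed by 2.39 ± 0.75, with 3 liver arrays and 1 blood array well above background. Cxcr3, the receptor for CXCL10, differed by -0.07 ± 0.30, with an interval of -0.75 to 0.60, and Cxcr6, which serves homing to the liver, by -0.55 ± 0.67, and by 0.28 without liver replicate 2. Itga4, an integrin alpha chain, was at most at 5.23 in liver and at least at 5.28 in blood, with no overlap and a difference of -0.35 ± 0.17, and Itgb1 differed by 0.87 ± 0.37.

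The perforin and granzyme list had 11 of 21 tested, 6 differences above 0 and a median of 0.05, against 0.04 over all genes. Gzmb, the protease that triggers target cell death, was at 6.09, 4.80, 6.30 and 5.54 in liver, against 5.73, 6.20, 6.49, 6.29 and 5.01 in blood. The groups overlapped throughout, and the difference of -0.26 ± 0.37 had a 95% interval of -1.08 to 0.56. Gzma differed by 0.17 ± 0.26, and Prf1, which encodes perforin, by -0.94 ± 0.48 with an interval of -1.99 to 0.11, and by -0.56 without liver replicate 2.

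Among effector cytokines and death ligands 8 of 23 were tested, 7 differences were above 0 and the median was 0.29, or 0.18 over the 5 that passed at both sites. Ifng was at 4.28, 4.49, 4.38 and 4.61 in liver, against 4.04, 5.31, 4.69, 2.69 and 3.48 in blood, a difference of 0.40 ± 0.45. Tnf had all liver values above all blood values, at -0.66 to -0.17 in liver and -1.84 to -0.67 in blood. However, no blood array had it well above background. With blood signals raised to the floor described for Camp where lower, liver was 1.35-fold higher. Il2 was well above background on 0 of the 9 arrays. Inhibitory receptors had 12 of 18 tested and a median of -0.01, with Pdcd1 at a difference of 0.21 ± 0.18, Lag3 at -0.03 ± 0.35 and Tigit at -0.74 ± 0.38.

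**Figure D3:**
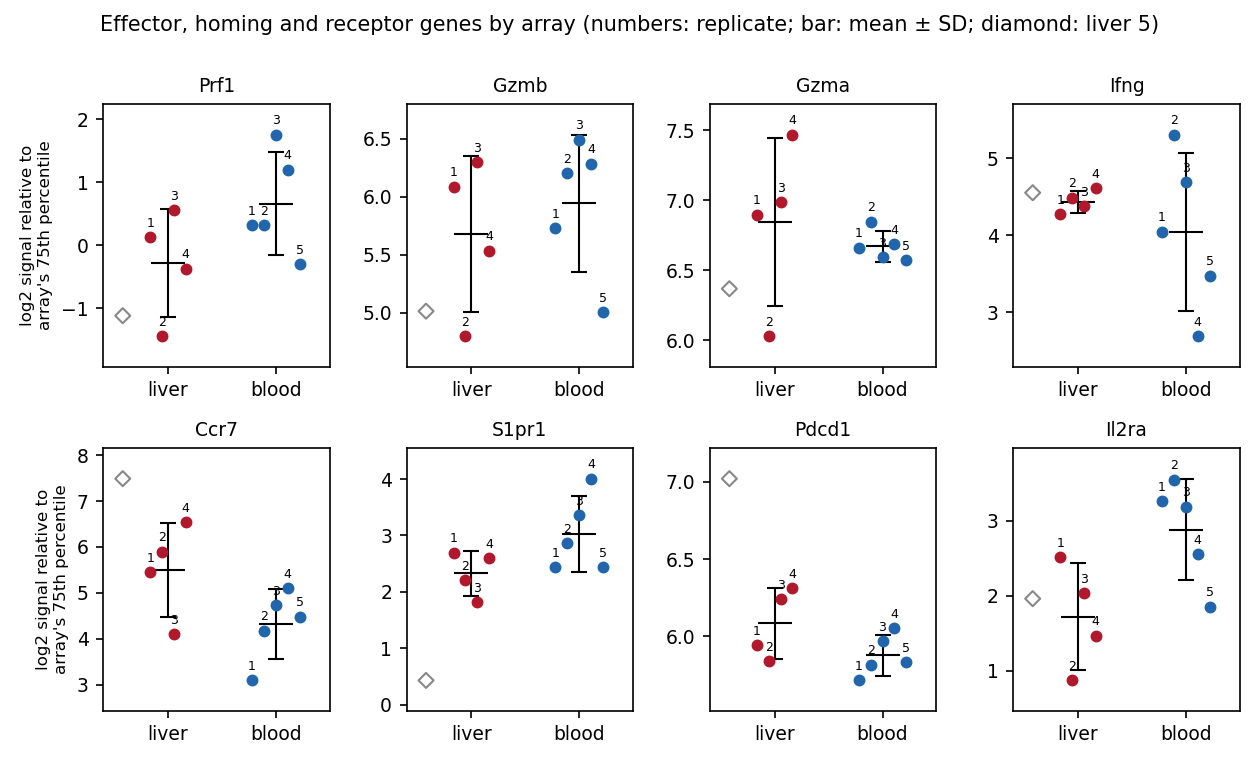
Log2 signal relative to the 75th percentile of each array (vertical axis) for 8 effector, homing and receptor genes in liver (red, left) and blood (blue, right), with replicate numbers, mean ± SD and liver replicate 5 as a grey diamond. The 2 groups overlap for every gene shown, Gzma between 6.03 and 7.47 in liver and between 6.57 and 6.85 in blood.

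Il2ra, the high-affinity chain of the interleukin-2 receptor, was at 2.51, 0.87, 2.03 and 1.47 in liver, against 3.26, 3.55, 3.18, 2.56 and 1.86 in blood. Liver replicates 1 and 3 overlapped blood replicate 5, and the difference was -1.16 ± 0.40. Cish, a target of the interleukin-2 signal through STAT5, differed by 2.19 ± 0.94 in the other direction, and Socs1 by 0.99 ± 0.38. Cish passed the filter only through liver, which favours a higher value there, and its blood values had an SD of 2.04. Within slides 1 to 4 the liver array minus the blood array was 3.57, 0.47, -0.50 and 6.24 for Cish. Bach2, a repressor of effector genes, differed by -1.58 ± 0.60 for its brighter probe and by 0.42 for the other bright probe. Its direction therefore depends on the probe, and the brighter probe passed the filter only through blood, which favours a lower value in liver. Id2, a factor of effector cells, differed by 0.67 ± 0.23.

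Of the genes of cell division, 30 of 39 cell cycle genes were tested, 16 differences were above 0 and the median was 0.06. Mki67, a proliferation marker, was at 5.77, 5.72, 3.17 and 3.51 in liver, against 5.64, 5.91, 2.76, 2.07 and 2.43 in blood. Replicates 1 and 2 were high at both sites, while liver replicates 3 and 4 and blood replicates 3 to 5 were low. Replicates with the same number shared a slide. Within slides 1 to 4 the liver array minus the blood array was 0.13, -0.19, 0.41 and 1.44.

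**Figure D4:**
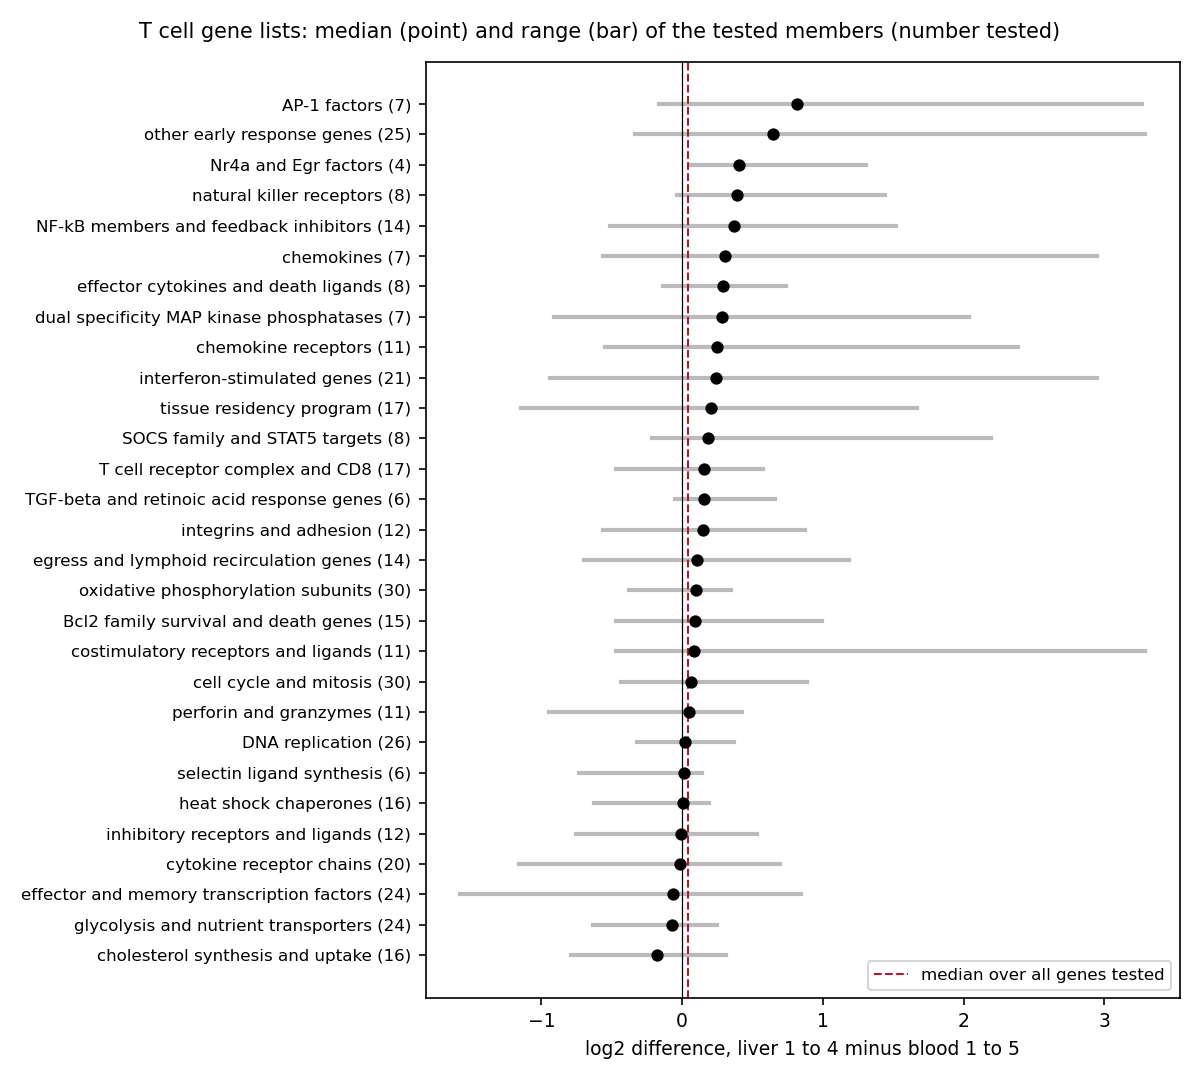
Median (point) and range (bar) of the log2 difference, liver minus blood (horizontal axis), over the tested members of 29 T cell gene lists, with the number tested beside each name. AP-1 factors (0.82) and other early response genes (0.64) have the highest medians and cholesterol synthesis (-0.18) the lowest, and the dashed line is the median of all genes tested (0.04). The AP-1 median is 0.25 over the 4 members that passed the filter at both sites.

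Of the 29 T cell lists, cholesterol synthesis and uptake had the lowest median, -0.18, with 16 of 29 tested, 6 differences above 0 and 3 genes with all liver values below all blood values, as 1.03% of all genes had. Msmo1, an enzyme of the pathway, differed by -0.74 ± 0.23. Interferon-stimulated genes had 21 of 35 tested, 16 differences above 0 and a median of 0.24, with Irgm1, an immunity-related GTPase, at -0.94 ± 0.32 and no overlap but only 1 liver array well above background.

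The genes named for not overlapping and differing by at least 1 were 6 higher and 11 lower in liver. The higher ones were H3c3, Saa2, Dusp1, H4c17, Trib1 and Gem. H4c17 was well above background on 4 liver arrays and 3 blood arrays. It therefore passed the filter only through liver, which favours a higher value there. H3c3, a replication-dependent histone, was at -0.61, -0.19, -0.26 and -0.10 in liver, against -1.58, -1.77, -2.11, -1.19 and -2.11 in blood, a difference of 1.46 ± 0.23 with a limma adjusted p of 0.309. It was well above background on 4 liver arrays and 1 blood array, so its size rests on blood signals that were mostly not. Many genes within a histone family are near-identical copies, so the signal cannot be assigned to this copy alone. Gem, a small GTPase induced on activation, was at 2.57 to 3.47 in liver and -0.98 to 2.54 in blood, a difference of 1.79, while the gene's other bright probe gave 0.33.

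The lower ones were Slco4a1, Marcks, Gigyf2, Etv4, Tubb6, Haspin, Atp11a, Tg, Tmem41a, Xpot and Man1a2. Slco4a1, an organic anion transporter, was at 1.43, 1.33, 1.68 and 1.26 in liver, against 2.52, 2.90, 2.34, 2.17 and 2.21 in blood, a liver level 0.499 times that of blood (SE 0.20 on the log2 scale) with a limma adjusted p of 0.775. Marcks, a membrane-bound substrate of protein kinase C, differed by -1.14 ± 0.24, with 1 liver array and 4 blood arrays well above background. Etv4, an ETS factor, was at -0.36, 0.47, 0.81 and -1.21 in liver, against 1.35, 1.65, 3.12, 2.56 and 1.18 in blood, a difference of -2.04 ± 0.49, while its other bright probe gave -0.31. Tubb6, a beta tubulin, differed by -2.31 ± 0.57, and Haspin, a mitotic histone kinase seen well above background on 1 liver array and 4 blood arrays, by -2.06 ± 0.52. For Man1a2, a mannosidase of the Golgi, liver replicate 4 at -2.60 stood apart from 1.46 to 1.59 on the other liver arrays, against 1.77 to 2.56 in blood.

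**Figure D5:**
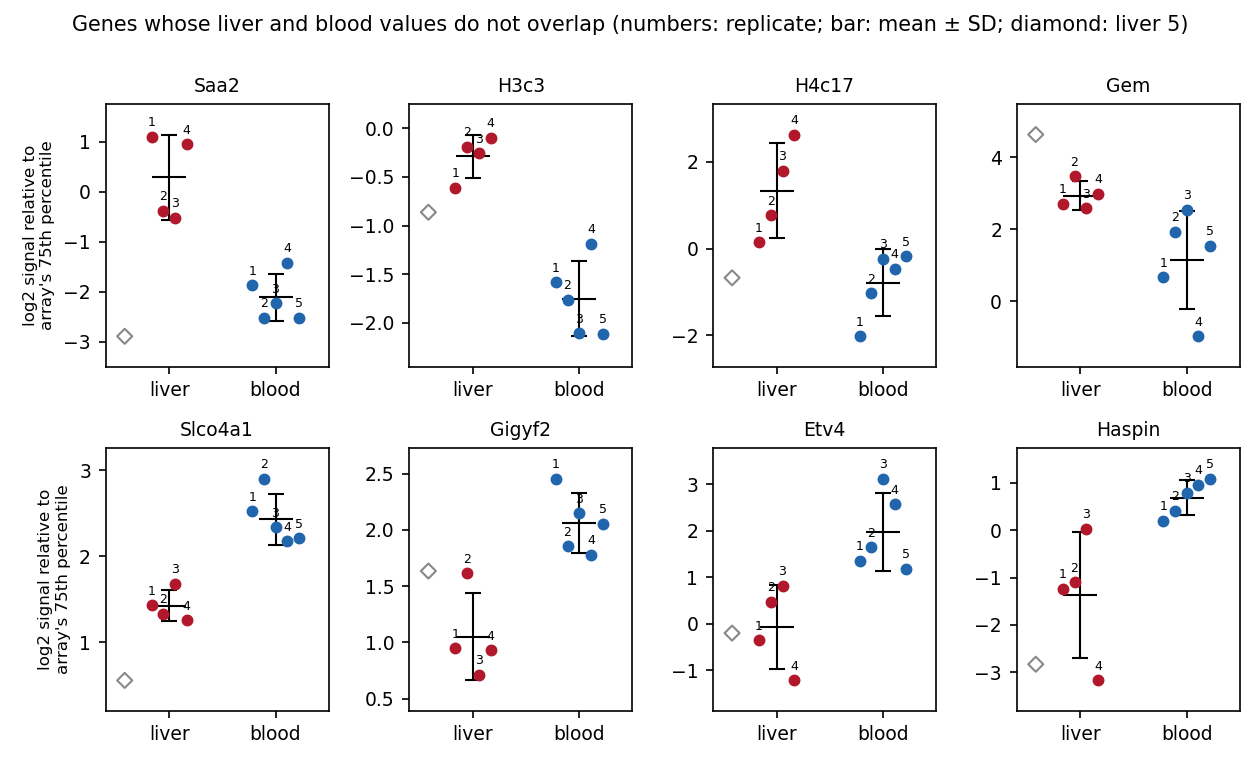
Log2 signal relative to the 75th percentile of each array (vertical axis) for 8 genes whose 4 liver values (red, left) and 5 blood values (blue, right) do not overlap, with replicate numbers, mean ± SD and liver replicate 5 as a grey diamond. The upper row is higher and the lower row lower in liver, and liver replicate 5 lies inside the blood range or beyond it on that side for Saa2 and H4c17. Saa2, H3c3 and H4c17 passed the filter only through liver, and Haspin only through blood.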

How the data were processed

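RNA of the sorted cells was amplified in 2 rounds, given the Cy3 dye and put on 1-colour Agilent arrays, per the labels' protocols. The processed signal is a background-subtracted linear intensity that Feature Extraction 11.0.1.1 wrote, per the file headers, while the submitters' processing notes name Agilent Feature Extraction 10.7 and Partek. The well-above-background flags were used as deposited. The value table deposited by the authors holds log2 values with a column median of 8.05, close to quantile-normalized log2 processed signal (median absolute difference 1.08e-04), and served as an alternative.

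From the intensity, log2 was taken and each array's 75th percentile subtracted. Control spots (1377 of 44397) and 24 non-uniform spots were left out, spots of a probe averaged, and the brightest probe of a gene used. Unversioned RefSeq accessions (GRCm38.p6) named 27508 of 39429 probes, over 20886 genes. A gene was tested if well above background on at least 3 of 4 liver or 4 of 5 blood arrays. Where all arrays of a site were dim, a fold against a floor is given instead. It sets the bright site's mean against, for each dim array, its probe or its lowest bright probe of any gene, whichever was higher. A probe can lie above that floor without being flagged, so this fold is not a strict lower bound. Differences were fitted with limma 3.58.1 in R 4.3.3 (two-sided, Benjamini-Hochberg over 7879 genes, 7 residual degrees of freedom), and the code was tested on simulated data. Figures were drawn with matplotlib 3.10.9.

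Named genes were those without overlap and with a difference of at least 1 (up to 12 a direction, by p), the largest differences of each list, and a panel of T cell genes. The members of the comparison, the lists and these rules were chosen with earlier results of these data known. Alternatives covered 23 settings: normalization, background, filter, probe, slide block, arrays in the fit, variance model, deposited table, each array left out and, added after seeing the data, a filter passed at both sites. The normexp alternative used median signals, since the files used here hold no mean signal. The number of arrays limits the precision. A few genes are not reported here.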

Additional observations from a re-analysis of the deposited data

Results flagged for a closer look

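An array stood apart from the rest of its own group in 10 of 238 groups examined, a rate that chance alone gives in about 1 of 20 groups. Liver replicate 3 was the array in 5 of these. It had 1.69 for Dusp1, against 2.47 to 2.57 on the other liver arrays, 2.81 for Tnfaip3, against 5.03 to 5.27, and -0.17 for Tnf, against -0.66 to -0.58. Its mean was 2.00 over the dual specificity phosphatases, against 2.53 to 2.59, and 3.97 over the heat shock chaperones, against 4.23 to 4.27.

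Liver replicate 4 stood apart for Man1a2, at -2.60 against 1.46 to 1.59, and for Cd8a, at 4.37 against 4.67 to 4.70. Liver replicate 2 stood apart for Havcr2, at -1.07 against 0.73 to 1.09, and for Mcl1, at 3.10 against 3.15 to 3.16, where the gap is small on any scale. Blood replicate 1 had a mean of 1.32 over the TGF-beta and retinoic acid response genes, against 1.69 to 1.83 on the other blood arrays.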

How the results depend on the processing

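No gene passed the threshold in 22 of 23 alternative settings, whereas 2 genes (Cd83 at 4.12 and Cxcr4 at 2.20, both higher) did without liver replicate 3. Genes without overlap numbered 44 higher and 81 lower. The higher count was 28 with the percentile taken over probes bright on all 9 arrays, 13 with median scaling, 18 with normexp and 19 with liver 5 added, and 66 to 164 with 1 array left out. The lower count was 6 with median scaling, 53 with normexp and 101 to 189 with 1 array left out, where fewer arrays make separation easier. The NF-kB list median was 0.63 with liver 5 added, against 0.37. The setting that required a probe to pass the filter at both sites was chosen after seeing the data, and gave 36 higher and 74 lower without overlap and an AP-1 median of 0.25, against 0.82. Of 843 list medians 839 moved by less than the spread between arrays. Of the 82 genes described 14 changed sign in 47 of 1833 values, each with a difference under its SE. Replicate numbers match slides, and same-numbered arrays correlated at 0.47, 0.05, 0.30 and 0.18. The blood array of the same number was the best match for 3 of 4 liver arrays. The numbers were not shown to pair animals, and the main fit did not model the slide. With the replicate block 0 genes passed and 512 had an unadjusted p under 0.05 by limma, against 327 in the main fit. The smallest limma adjusted p was 0.105 with the block, against 0.309. The cause of the other moves was not tested. Signal over background limits Junb, Il2, Eomes and Klrg1, which were not tested.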

Other observations

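Replication-dependent and linker histone genes, chosen by symbol after their values were seen, had 26 of 42 tested. Of these 7, H1f1, H1f4, H3c3 and H4c17 among them, passed the filter only through liver, which favours a higher value there. The other 19 passed at both sites, and their differences ran from 0.07 to 1.55 with a median of 0.43, against 0.03 over the 7025 genes that passed at both sites. Their mean level was 3.78, 3.83, 4.54 and 4.72 on liver replicates 1 to 4, against 3.30, 3.56, 3.54, 3.63 and 3.74 on blood replicates 1 to 5. Liver replicate 1 lay just above the highest blood array, and liver replicate 5 was at 3.80. None of the 19 had liver values all above blood, a pattern that 36 of the 7025 genes that passed at both sites showed. Of the 26 genes 0 passed the threshold with limma and 13 had an unadjusted p under 0.05, against 327 of 7879 genes tested. These 13 include all 7 that passed the filter only through liver, so the count is no support for a difference. Many copies within a histone family are near-identical in sequence, so these are not all separate measurements. The median over the 30 tested cell cycle genes was 0.06 and over the 26 tested DNA replication genes 0.02.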
